A study of Homo sapiens with 6 samples.

Results

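Collagen chain genes were followed in SK-Hep1 cells after joint depletion of YAP1 and TAZ. Members were all probes whose platform gene symbol has the form COL, number, A, number, which gave 73 probes for 43 genes among the 47231 probes of the array. Probes of the COL6A4 pseudogenes, 3 in all, do not have that form and were not members. SK-Hep1 is an established human line that the labels give as hepatic adenocarcinoma. The depleted cells (siYAP1&TAZ, 3 samples) received siRNA against YAP1 and TAZ, and the control cells (siLuc, 3 samples) received a control siRNA; RNA was taken 3 days after transfection. The labels do not say whether replicates came from separate cultures, so each p-value speaks to the spread among these arrays alone, part or all of which may be technical.

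Collagens are the main structural proteins of the extracellular matrix. A collagen molecule is built from chains that wind around one another into a rope-like helix, and the chain genes fall into classes by what the molecules assemble into. Fibrillar collagens form the tension-bearing fibres of connective tissue, type IV forms the sheet-like network of basement membranes, type VI forms beaded filaments around cells, and type VII anchors epithelial basement membranes to the tissue beneath. FACIT collagens sit on the surface of fibrils, transmembrane collagens span the cell membrane, and multiplexins lie in or near basement membranes. YAP1 and TAZ are co-activators of TEAD transcription factors that respond to matrix stiffness and cell spreading, which places matrix genes close to their field of action.

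The siRNA targets were lower in the depleted cells. YAP1 fell 5.33-fold, and WWTR1, which encodes TAZ, fell at least 2.34-fold to below background on all 3 depleted arrays. Each array was judged against its own background, estimated from the lower side of its intensity distribution. The threshold for a probe to count as above background ran from 76.46 to 99.47 intensity units on the depleted arrays and from 81.48 to 128.3 on the control arrays. Within a group, r across probes was 0.990 to 0.995, and the number of arrays limited the precision. Of the endothelial markers checked, PECAM1, CDH5, VWF, KDR, TEK and TIE1, none was above background on 3 or more arrays. Of 6 hepatocyte markers with a named probe, APOA1, APOB, TTR and CYP3A4 were not above background, while SERPINA1 rose 2.84-fold and ALB fell 1.39-fold. The summed intensity of the 10 hepatocyte probes was 2282 to 2639 in depleted cells and 1581 to 1816 in control cells. Of 6 fibroblast and mesenchymal markers, PDGFRA, PDGFRB and DCN were not above background. LUM, below background on all control arrays, was tested through the depleted arrays alone and rose at least 1.04-fold. Its deposited intensities overlapped, at 94.5, 104 and 87.0 in depleted cells and 65.0, 66.1 and 88.7 in control cells. ACTA2 rose 1.31-fold, while VIM did not pass (log2 change 0.02, adjusted p = 0.906). The 12 probes of that list summed to 37060 to 40580 in depleted cells and 36840 to 39820 in control cells. Leukocyte markers PTPRC and CD3E were not above background, while CD14, also made by other cells, rose 3.22-fold. Over its 7 probes the summed intensity of the leukocyte list was 817.2 to 896.6 in depleted cells and 477.9 to 577.1 in control cells, and the part of any of these marker lists in the collagen results was not tested.

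Most collagen genes were not measurably expressed in this line. Of the 73 probes, 21 probes for 18 genes were above background on at least 3 of the 6 arrays, the condition for being tested. The other 52 probes had intensities between 35.6 and 119.97, and 50 of them were below the threshold on every array, so that 23 genes had no probe above background on any array. A probe below background gives only an upper bound on the transcript, not its absence. Among fibrillar genes, COL2A1 (the cartilage collagen), COL5A3, COL11A1, COL11A2 and COL24A1 were below background throughout. COL1A2, which encodes the chain that pairs with COL1A1 in type I collagen, had 1 probe above the threshold on 1 depleted array only. Its intensities were 62.8, 92.4 and 89.7 in depleted cells and 92.4, 69.98 and 103.9 in control cells, so the groups overlapped. The type IV genes COL4A3 and COL4A4, which are used by kidney glomerular basement membrane, the type VI genes COL6A5 and COL6A6, and the short chain collagens COL8A1 and COL10A1 were below background on all 6 arrays.

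FACIT genes were the class with the most members below background, 8 of 10. COL9A1, COL9A3, COL14A1, COL19A1, COL20A1, COL21A1 and COL22A1 were below it on every array. COL12A1 crossed it on 1 control array, with intensities of 61.1, 69.3 and 73.1 in depleted cells and 98.8, 99.0 and 119.97 in control cells for that probe. All 3 depleted values lay below all 3 control values, as deposited intensities did for 50% of all detected probes. Transmembrane collagens COL23A1 and COL25A1, the multiplexin COL15A1, and COL26A1 and COL28A1 were below background throughout. COL17A1 had no named probe and was not analysed here.

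**Figure D1:**
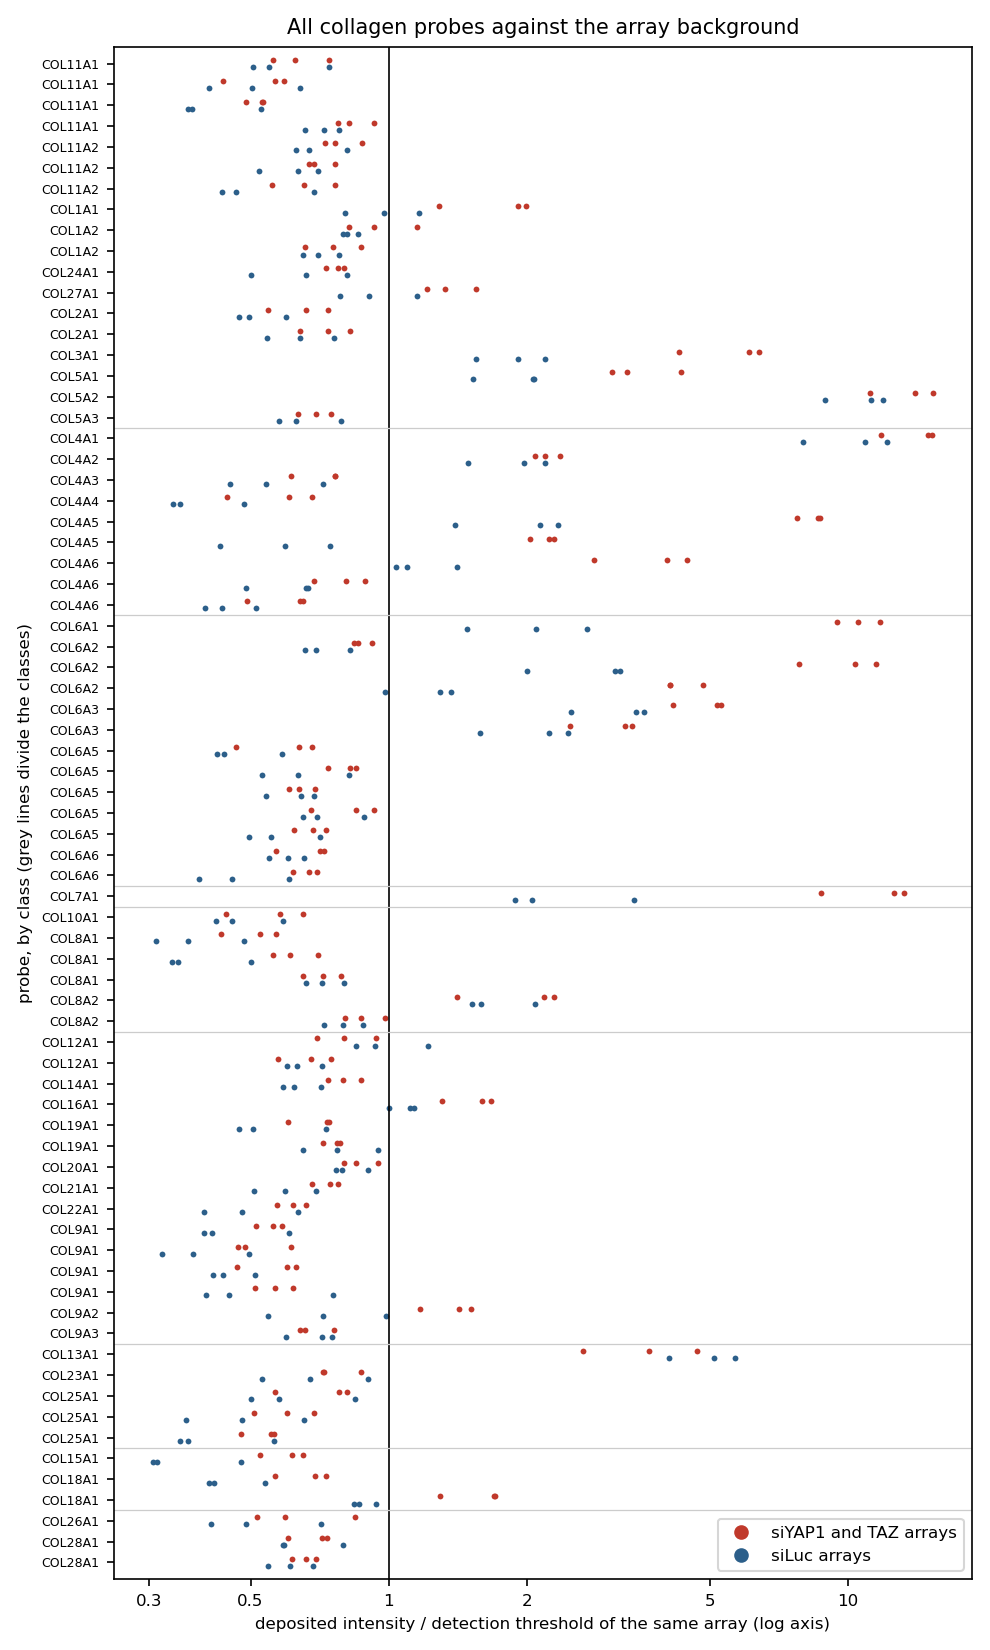
Deposited intensity of each of the 73 collagen probes divided by the detection threshold of the same array, on a log axis, with the 3 depleted (red) and 3 control (blue) arrays of each probe; grey lines divide the classes. Probes of 23 genes stay left of the line at 1 on all 6 arrays, and COL6A1, COL6A2, COL7A1 and COL4A5 lie well to its right in depleted cells.

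Among the collagen genes that could be tested, nearly all were higher in depleted cells. Of the 21 probes, 18 rose, 1 fell and 2 did not pass an adjusted p of 0.05 in limma with Benjamini-Hochberg adjustment over all 15899 detected probes, of which 26.5% rose and 25.7% fell. Counted as genes by their brightest probe, 15 of 18 rose, 1 fell and 2 did not pass, against 27.4% of all 9718 detected genes that rose and 27.5% that fell. The median log2 change of the 18 genes was 0.86, beside 0.0016 over all detected genes, and with no condition on background the median over all 43 collagen genes was 0.13. A rise of 2-fold or more was found for 7 of the 18, and for 5.2% of all genes. The arrays read RNA of whole cultures, so a change in the number of cells that express a gene and a change in RNA per cell cannot be told apart.

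The condition of being above background favours probes that are high in a group. Of the probes that rose, 3, those of COL9A2 and COL18A1 and a COL4A5 probe, met it through the depleted arrays alone. The condition thus picked them for being high in depleted cells. The probes of COL1A1 and COL27A1 were above background on 1 control array, and those of COL16A1 and a dimmer COL6A2 probe on 2. They too could not have met the condition without the depleted arrays, a limit on reading their adjusted p-values as support. With all 73 probes tested and no such condition, 21 were higher and 1 was lower, beside 7.49% and 6.84% of all 47231 probes. The added higher probes, of COL8A1, COL15A1 and COL18A1, were below background on every array. The lower probe was of COL12A1 and not of COL13A1, which did not pass there (adjusted p = 0.0958). Of the 14 probes above background on all 6 arrays, 11 rose and 1 fell, beside 26.7% and 27.4% of such probes. The deposited intensities, before any normalisation, gave the 3 depleted arrays wholly above the 3 control arrays for 13 of the 21 tested probes and wholly below for 1. Over all detected probes those shares were 9.91% above and 50% below. After normalisation 18 of the 21 lay wholly above and 1 wholly below, beside 30% and 29.3% of all detected probes.

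**Figure D2:**
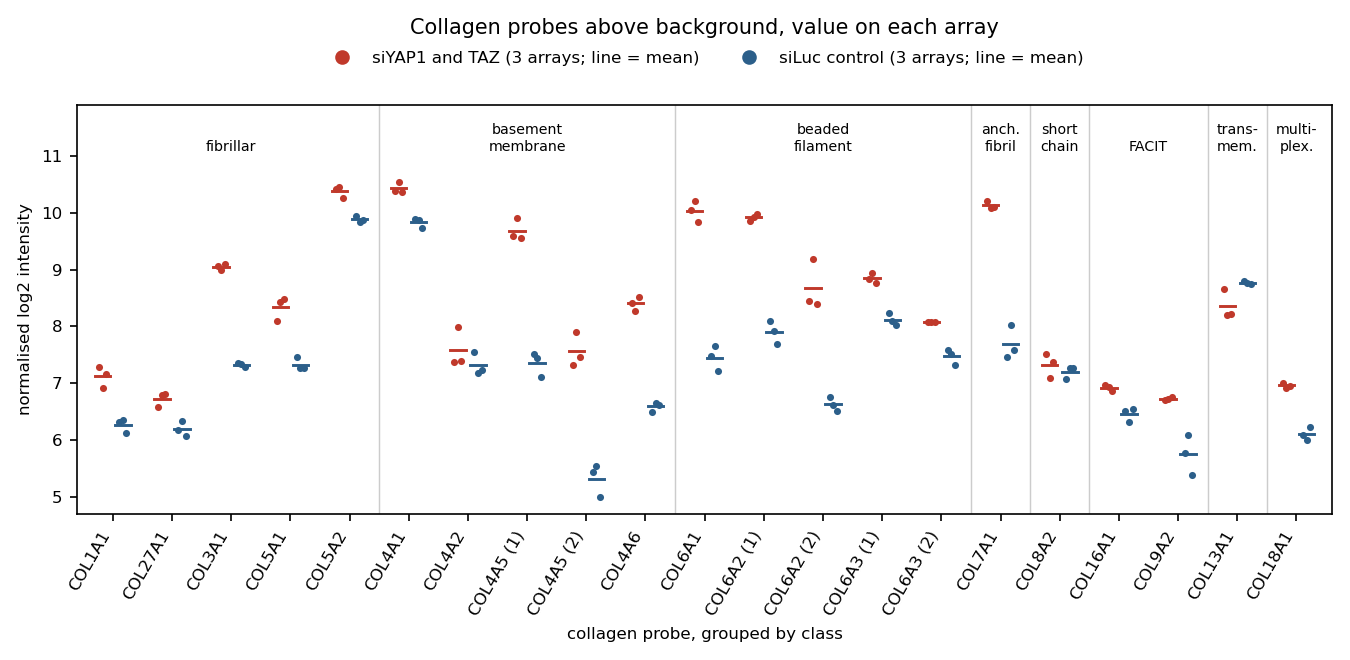
Normalised log2 intensity on each array for the 21 tested collagen probes, depleted cells in red on the left and control cells in blue on the right of each pair, with a line at the mean of 3 arrays; numbers in brackets separate probes of a gene. Depleted values lie wholly above control values for 18 probes, below them for COL13A1, and overlap for COL4A2 and COL8A2.

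All 3 tested type VI genes rose, COL6A1 and COL6A2 strongly. COL6A1, the chain that with COL6A2 and COL6A3 makes the standard type VI molecule, had normalised log2 intensities of 10.05, 10.22 and 9.84 in depleted cells and 7.48, 7.65 and 7.21 in control cells. The groups were far apart on every array. COL6A1 rose 6.01-fold (log2 change 2.59 ± 0.136 SE, limma adjusted p = 1.09e-07), and its rise ranked 16 among the 9718 genes. COL6A2 was read by 3 probes. The brightest had 9.86, 9.93 and 9.98 in depleted cells and 8.09, 7.92 and 7.70 in control cells and rose 4.07-fold (log2 change 2.02 ± 0.115 SE, adjusted p = 1.64e-07). The other probe of the same reference transcript gave a log2 change of 2.05, and the groups did not overlap for either. The probe designed on a different COL6A2 transcript, NM_058175, was below background on all arrays, with intensities of 70.4, 85.04 and 65.4 in depleted cells and 80.8, 66.9 and 84.5 in control cells.

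COL6A3, which encodes the largest of those chains, also rose. Its brighter probe had 8.84, 8.95 and 8.76 in depleted cells and 8.24, 8.09 and 8.02 in control cells. That was a 1.66-fold rise (log2 change 0.73 ± 0.104 SE, adjusted p = 0.000141), and the other probe gave 0.61. Before normalisation the brighter probe read 404, 413 and 404 in depleted cells and 402, 294 and 321 in control cells, so control replicate 1 nearly reached the depleted arrays. For the other probe the deposited intensities overlapped, at 250, 246 and 263 in depleted cells and 259, 200 and 203 in control cells.

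COL7A1, the single chain gene of type VII collagen, also rose strongly. Its log2 intensities were 10.22, 10.09 and 10.10 in depleted cells and 7.46, 8.02 and 7.58 in control cells. The depleted arrays were close together, and control replicate 2 was the highest of the controls. COL7A1 rose 5.47-fold (log2 change 2.45 ± 0.14 SE, adjusted p = 1.64e-07). In deposited intensity this was 1013, 871 and 978 against 238, 279 and 241.

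Sequences before the transcription starts of these genes are shown because several members lie next to one another on a chromosome, and because the depleted proteins act through TEAD factors. All come from RefSeq's GRCh38.p14 table, which held 31 of the 43 genes and 14 of the 18 tested ones; COL1A1, COL3A1, COL5A2 and COL6A1 were not among them. Each runs 5′ to 3′ in the gene's direction over the 250 bases before the start, and capitals mark the GC box letters GGGCGG and the CCAAT box letters CCAAT on either strand. COL7A1 is at chr3:48595330-48595579 on the minus strand and COL6A2 at chr21:46097862-46098111 on the plus strand.
COL7A1: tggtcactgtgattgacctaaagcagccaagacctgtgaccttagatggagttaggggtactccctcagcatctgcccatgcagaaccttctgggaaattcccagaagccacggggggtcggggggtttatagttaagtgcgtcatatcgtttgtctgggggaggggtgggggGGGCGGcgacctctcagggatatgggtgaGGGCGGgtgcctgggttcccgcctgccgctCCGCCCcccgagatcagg
COL6A2: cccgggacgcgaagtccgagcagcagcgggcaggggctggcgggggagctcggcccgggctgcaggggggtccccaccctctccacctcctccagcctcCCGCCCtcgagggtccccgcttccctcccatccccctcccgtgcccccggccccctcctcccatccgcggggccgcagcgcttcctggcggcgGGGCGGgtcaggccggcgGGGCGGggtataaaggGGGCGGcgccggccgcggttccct
The COL7A1 window held 3 GC boxes and the COL6A2 window 4, and both held the TATA box letters (TATAAA on either strand). The start of some genes is set around such letters when they lie shortly before it. In COL6A2 they lay on the gene's own strand, close to the start. In COL7A1 they lay on the opposite strand only, near the middle of the window, so that match is of letters alone. No CCAAT box was in either window.

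Of the 4 tested type IV genes, 3 rose. COL4A5 and COL4A6, which encode chains found together in the basement membrane of smooth muscle and skin, both rose over 3-fold, while of COL4A1 and COL4A2, the chains of nearly every basement membrane, the first rose 1.52-fold and the other did not pass the test. The brighter COL4A5 probe had 9.59, 9.92 and 9.56 in depleted cells and 7.51, 7.44 and 7.11 in control cells. COL4A5 thus rose 5.04-fold (log2 change 2.33 ± 0.136 SE, adjusted p = 1.86e-07). Its other probe, designed on the transcript NM_033380, was below background on all control arrays. That probe had intensities of 155, 223 and 178 in depleted cells and 69.1, 60.7 and 55.02 in control cells, a rise of at least 2.33-fold.

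COL4A6 was read by 3 probes, of which 1 was above background. That probe had 8.42, 8.28 and 8.53 in depleted cells and 6.50, 6.66 and 6.61 in control cells. COL4A6 rose 3.53-fold (log2 change 1.82 ± 0.105 SE, adjusted p = 1.68e-07), with no overlap of the groups. Another COL4A6 probe designed on the same transcript, NM_001847, stayed below background on every array, between 48.9 and 49.8 in depleted cells and between 41.95 and 55.7 in control cells.

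COL4A1 had 10.39, 10.56 and 10.38 in depleted cells and 9.90, 9.88 and 9.73 in control cells, a rise of 0.61 ± 0.102 (log2 change, SE; adjusted p = 0.000479). Its deposited intensities overlapped, at 1142, 1174 and 1187 in depleted cells and 1263, 991 and 1026 in control cells. With arrays scaled to a common median in place of quantile normalisation, the COL4A1 change was 0.38 and did not pass (adjusted p = 0.107). Here and below, adjusted p under median scaling followed the size of the change alone (COL6A3 0.5678, 0.01066, and COL13A1 -0.5702, 0.0103). Such p-values do not measure the spread of each probe by itself. COL4A2 had deposited intensities of 159, 235 and 170.5 in depleted cells and 254, 161 and 190.9 in control cells, and averaged 7.58 ± 0.359 and 7.32 ± 0.204 after normalisation (log2, SD, n = 3 each). The COL4A2 groups overlapped, with depleted replicate 2 and control replicate 1 the highest of their groups, and the log2 change of 0.26 had a 95% interval of -0.11 to 0.64 (adjusted p = 0.221).

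Each of these type IV pairs lies head to head, transcribed in opposite directions from neighbouring starts. The starts of COL4A1 and COL4A2 on chromosome 13 are 127 bases apart, and the nearest annotated starts of COL4A5 and COL4A6 on chromosome X are 380 bases apart. COL4A3 and COL4A4 on chromosome 2, both below background here, lie 419 bases apart. COL4A6 has 2 annotated starts, the farther 1416 bases from that of COL4A5, and the window of the nearer is shown. Shown first are the windows of COL4A5, at chrX:108439588-108439837 on the plus strand, and of COL4A6, at chrX:108439459-108439708 on the minus strand, which overlap as opposite strands of the same stretch. Last are the 126 bases between the starts of COL4A1 and COL4A2, at chr13:110307158-110307283, given on the plus strand, in the direction of COL4A2.
COL4A5: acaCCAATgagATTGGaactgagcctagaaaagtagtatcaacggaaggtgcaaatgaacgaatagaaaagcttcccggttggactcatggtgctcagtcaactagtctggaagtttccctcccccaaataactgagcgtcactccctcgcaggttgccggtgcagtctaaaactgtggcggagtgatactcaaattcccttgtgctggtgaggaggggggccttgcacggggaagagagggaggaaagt
COL4A6: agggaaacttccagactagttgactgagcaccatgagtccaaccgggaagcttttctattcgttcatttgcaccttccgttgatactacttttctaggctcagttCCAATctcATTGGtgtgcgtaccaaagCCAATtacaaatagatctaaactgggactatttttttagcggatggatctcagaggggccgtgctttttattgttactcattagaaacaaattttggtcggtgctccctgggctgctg
COL4A1 to COL4A2: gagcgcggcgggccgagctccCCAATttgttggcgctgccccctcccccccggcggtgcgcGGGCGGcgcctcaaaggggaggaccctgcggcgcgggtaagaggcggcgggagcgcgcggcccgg
The COL4A5 window held 2 CCAAT boxes and the COL4A6 window 3, of which 2 are the COL4A5 boxes read on the other strand. Neither of these windows held a GC box, but the window of the farther COL4A6 start, not shown, did. The stretch between COL4A1 and COL4A2 held 1 of each. G and C made up 51.2% of the COL4A5 window and 44% of the COL4A6 window, against 80.2% between COL4A1 and COL4A2, 79.6% before COL6A2 and 60.8% before COL7A1.

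Across the 17 start windows of the 14 tested genes, none held the TEAD letters GGAATG on either strand, which 11.89% of all 35116 windows of the same length held. None held the AP-1 letters TGANTCA, against 6.57% of all windows. GC boxes were in 13 of the 17 against 42.64% of all, CCAAT boxes in 4 against 32.01%, and TATA boxes in 4 against 10.72%. These are matches of letters in a short window only, and overlapping windows of a gene or of a head to head pair were counted separately.

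Fibrillar genes rose in all 5 tested cases. COL3A1, the chain of type III collagen in pliable tissues, had 9.06, 8.99 and 9.10 in depleted cells and 7.35, 7.34 and 7.29 in control cells. The spread within each group was small, and COL3A1 rose 3.31-fold (log2 change 1.73 ± 0.0936 SE, adjusted p = 1.30e-07). COL5A1, a chain of type V collagen, which starts and limits fibril growth, had 8.09, 8.44 and 8.48 in depleted cells and 7.46, 7.26 and 7.26 in control cells and rose 2.01-fold (log2 change 1.01, adjusted p = 4.76e-05). COL5A2, its partner chain, had 10.42, 10.47 and 10.27 in depleted cells and 9.94, 9.85 and 9.88 in control cells, a 1.41-fold rise (log2 change 0.49, adjusted p = 0.00151). The COL5A2 intensities overlapped before normalisation, at 1171, 1110.1 and 1091 in depleted cells and 1305, 971 and 1142 in control cells, and under median scaling the change was 0.26 with an adjusted p of 0.285.

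COL1A1, the major chain of type I collagen, was dim. It was above background on all depleted arrays and on 1 control array, with log2 intensities of 7.28, 6.91 and 7.16 in depleted cells and 6.31, 6.35 and 6.12 in control cells. COL1A1 rose 1.81-fold (log2 change 0.86 ± 0.12 SE, adjusted p = 0.000124), and its deposited intensities of 152, 128 and 149 lay above the 113, 94.98 and 103 of control cells. COL27A1, a fibrillar collagen of cartilage, was likewise above background on 1 control array and had 6.58, 6.79 and 6.81 in depleted cells and 6.17, 6.33 and 6.07 in control cells (1.45-fold higher, adjusted p = 0.00188). Its deposited intensities overlapped, with depleted replicate 1 at 101 and control replicate 1 at 105.

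Of the remaining genes, COL9A2, a chain of the FACIT type IX, and COL18A1, the multiplexin whose end fragment is endostatin, were below background on all control arrays and rose at least 1.31-fold and at least 1.54-fold (adjusted p = 0.000268 and 3.26e-05). COL9A2 intensities were 109, 116 and 117 in depleted cells and 83.4, 80.4 and 70.0 in control cells. COL18A1 intensities were 131, 128 and 132 in depleted cells and 100.3, 76.5 and 108 in control cells. Both sets were dim but did not overlap. As said above, both probes met the condition for testing through the depleted arrays alone, which picked them for being high in depleted cells. Their adjusted p-values are therefore no separate support for a rise. COL16A1, another FACIT collagen, was above background on all depleted arrays and on 2 control arrays. It had log2 values of 6.97, 6.94 and 6.86 in depleted cells and 6.51, 6.31 and 6.55 in control cells (log2 change 0.47, adjusted p = 0.00287). Its deposited intensities overlapped, with 127.7, 130.0 and 124.5 in depleted cells and 129.2, 92.5 and 128.2 in control cells, and under median scaling the change of 0.45 had an adjusted p of 0.0501.

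COL8A2, a short chain collagen of the corneal endothelial membrane, had 7.52, 7.08 and 7.38 in depleted cells and 7.08, 7.27 and 7.26 in control cells. The groups overlapped, and its log2 change of 0.13 had a 95% interval of -0.15 to 0.40 (adjusted p = 0.428).

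COL13A1, a transmembrane collagen of cell adhesion sites, was the tested collagen gene that fell. Its log2 intensities were 8.67, 8.19 and 8.22 in depleted cells and 8.80, 8.77 and 8.76 in control cells. Depleted replicate 1 stood closer to the controls than the other depleted arrays did. COL13A1 fell 1.33-fold (log2 change -0.41 ± 0.129 SE, adjusted p = 0.0197), and its deposited intensities were 359, 264 and 286 in depleted cells and 593, 463 and 524 in control cells. The call was lost without depleted replicate 2 (-0.33, adjusted p = 0.0611) or 3 (-0.34, 0.0806), without control replicate 1 (-0.40, 0.0522) or 2 (-0.41, 0.0545), and when every probe was tested regardless of background (-0.41, 0.0958). Under median scaling COL13A1 was at -0.57, or -0.46 relative to all genes, with an adjusted p of 0.0103.

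**Figure D3:**
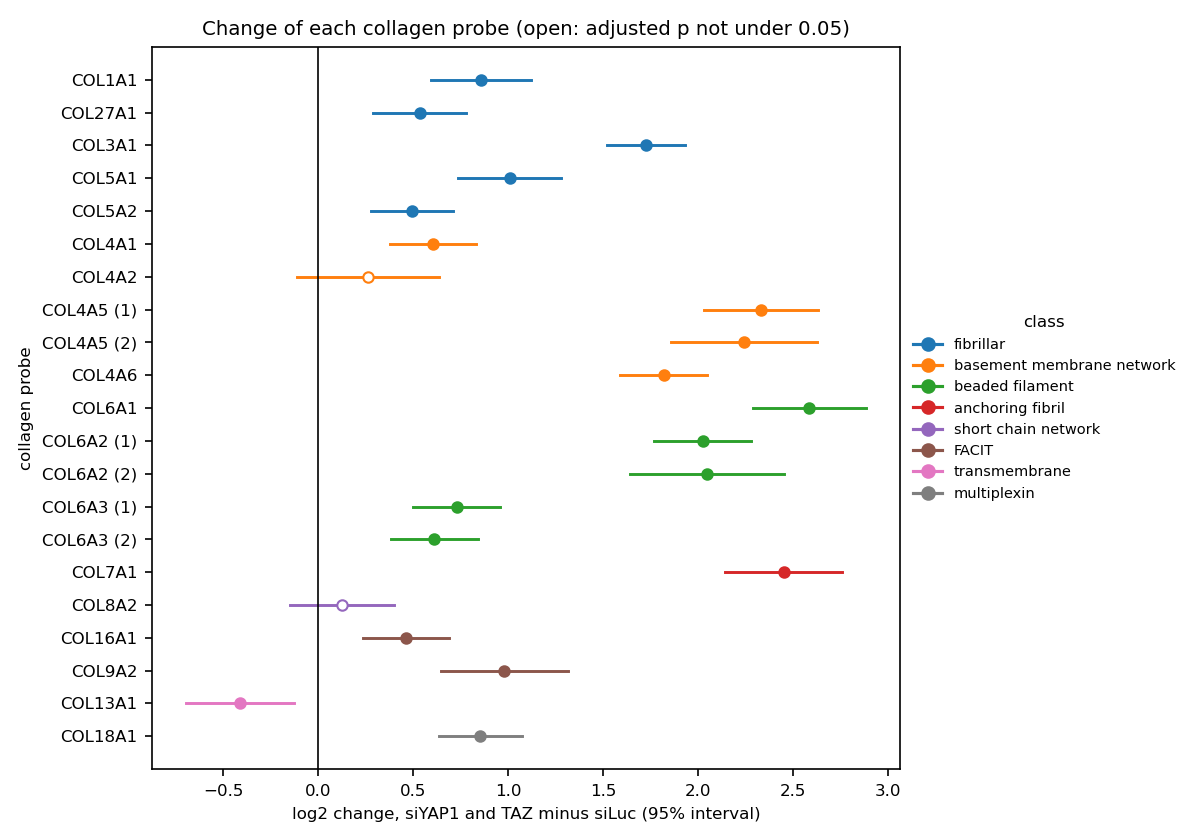
Log2 change (depleted minus control cells) of each of the 21 tested collagen probes with its 95% interval from the limma fit, coloured by class; open points did not pass an adjusted p of 0.05. COL6A1, COL7A1, COL4A5, COL6A2 and COL4A6 lie above 1.8, COL4A2 and COL8A2 have intervals that include 0, and COL13A1 lies below it.

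Chains of the same collagen type were compared for the size of their change. The log2 difference between chains of a type was formed within each array, and 10 pairs were compared between the groups by a two-sided exact permutation test over the 6 arrays. The smallest p that this test can give is 0.1, so it could not pass 0.05, and the differences are given as sizes with their SE. For 9 of the 10 pairs the depleted arrays lay wholly to one side of the control arrays (exact p = 0.1, 0.111 after Benjamini-Hochberg adjustment), as did 65.5% of all pairs of detected genes. The change of COL6A1 minus that of COL6A3 was 1.86 ± 0.128 (log2, SE), COL6A1 minus COL6A2 was 0.56 ± 0.161, and COL6A2 minus COL6A3 was 1.29 ± 0.0895. COL4A5 minus COL4A1 was 1.73 ± 0.0903, and COL4A6 minus COL4A1 was 1.21 ± 0.152. Against COL4A2 the differences were 2.07 ± 0.149 for COL4A5 and 1.56 ± 0.319 for COL4A6. Within the head to head pairs the differences were 0.51 ± 0.237 for COL4A5 minus COL4A6 and 0.34 ± 0.182 for COL4A1 minus COL4A2, where the arrays overlapped (exact p = 0.2). COL5A1 minus COL5A2 was 0.51 ± 0.163.

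Position on the chromosome was shared by several of the genes. In the gene table, collagen genes were direct protein-coding neighbours in 7 pairs. COL6A1 and COL6A2 on chromosome 21 had log2 changes of 2.59 and 2.02, and COL4A5 and COL4A6 had 2.33 and 1.82. COL3A1 and COL5A2, neighbours on chromosome 2, differed more, at 1.73 and 0.49, and COL4A1 and COL4A2 were at 0.61 and 0.26. COL4A3 with COL4A4, COL6A5 with COL6A6, and COL9A1 with COL19A1 were pairs in which both genes were below background.

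**Figure D4:**
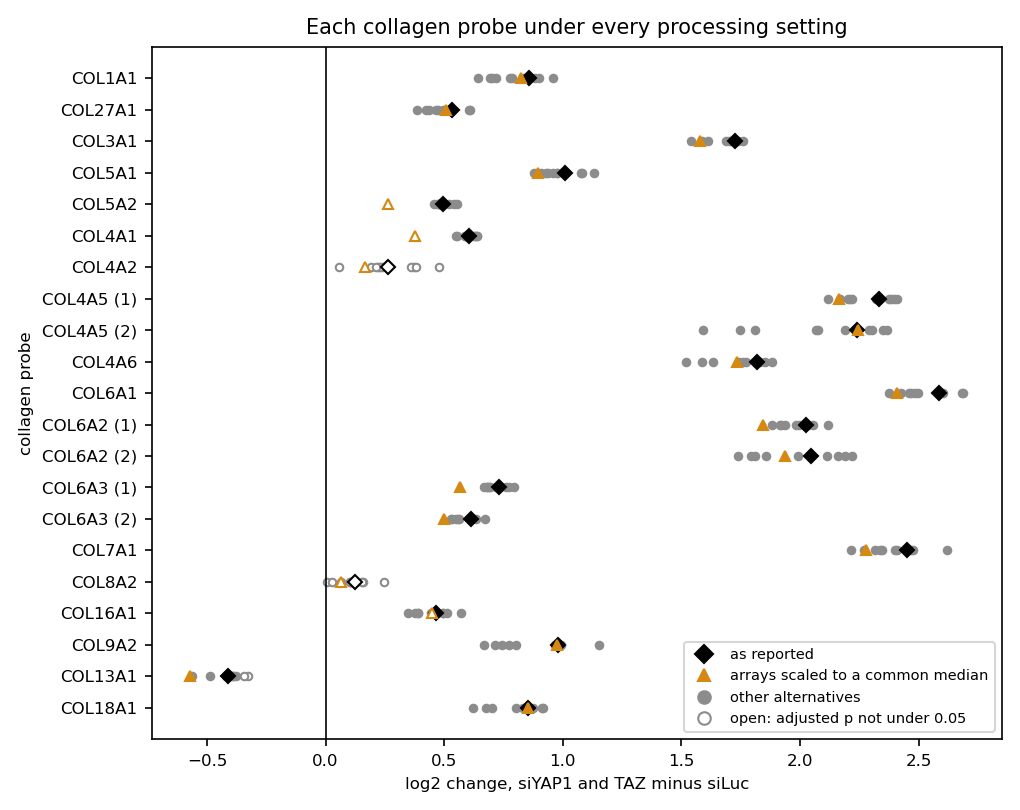
Log2 change of each tested collagen probe as reported (black diamonds), with arrays scaled to a common median (orange triangles) and under the other alternatives (grey), where open marks did not pass an adjusted p of 0.05. No probe changed direction. Under median scaling, where adjusted p followed the size of the change alone, COL5A2, COL4A1 and COL16A1 no longer passed.

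Genes that make, process and bind collagen moved in both directions. Collagen chains are hydroxylated and glycosylated in the endoplasmic reticulum, folded by chaperones, trimmed outside the cell and cross-linked, and cells bind them through integrins and discoidin receptors. Of 47 listed genes 32 were tested, of which 19 rose, 3 fell and 10 did not pass, beside 27.4% and 27.5% of all genes. Their median log2 change was 0.37. By their brightest probes, the 10 that did not pass lay between -0.09 and 0.36. One of them, FKBP14, a prolyl isomerase singled out after its values were seen, had a dimmer probe that was lower (log2 change -0.36, adjusted p = 0.0361).

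Among 13 tested genes of chain hydroxylation and glycosylation, 7 rose and 1 fell. Of the 7, PLOD1, PLOD3 and P3H3, hydroxylases named after their values were seen, did not pass under median scaling (adjusted p = 0.135, 0.667 and 0.345), which left 4. Leaving out 1 array also ended the PLOD3 call for depleted replicate 2 and control replicates 1 and 2 (0.25 to 0.33, adjusted p of 0.0533 to 0.0642), and the P3H3 call for depleted replicate 2 and any control replicate (0.24 to 0.41, adjusted p of 0.0533 to 0.0822). With no condition on background, PLOD3 and P3H3 did not pass either (adjusted p = 0.126 and 0.122). P4HA2 and P4HA1, catalytic subunits of the prolyl 4-hydroxylase that stabilises the helix, rose 2.29-fold and 1.79-fold (adjusted p = 6.07e-06 and 6.14e-05), and their other probes gave log2 changes of 0.82 and 0.65 for P4HA2 and 0.85 for P4HA1. P4HA2 averaged 10.98 ± 0.122 in depleted cells and 9.79 ± 0.139 in control cells (log2, SD, n = 3 each). PPIB, a prolyl isomerase, rose 1.99-fold, and CRTAP, its partner in the prolyl 3-hydroxylation complex, rose 1.60-fold, with 0.22 (adjusted p = 0.245) for its other probe. P3H2, a prolyl 3-hydroxylase that acts on type IV collagen, fell 1.86-fold (log2 change -0.90 ± 0.122 SE, adjusted p = 0.000102). It averaged 7.42 ± 0.223 in depleted cells and 8.32 ± 0.0745 in control cells, with no overlap.

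Of 6 tested genes of folding and secretion, 3 rose and 1 fell. SERPINH1, the collagen chaperone HSP47, rose 1.71-fold (log2 change 0.78 ± 0.104 SE, adjusted p = 9.23e-05). FKBP10, a collagen-binding prolyl isomerase, rose at least 1.38-fold, its probe being below background on all control arrays. It was thus tested through the depleted arrays alone and so picked for being high in depleted cells, though it is among the 3 counted here. KLHL12, a ubiquitin ligase adaptor for procollagen export, rose 1.21-fold (adjusted p = 0.0351), a call lost when any array but control replicate 2 was left out, with values of 0.22 to 0.30 and adjusted p of 0.0552 to 0.117. Its other probe gave 0.20 (adjusted p = 0.127). With the replicate number as a block KLHL12 had an adjusted p of 0.0576, and under median scaling a change of 0.09. TMEM38B, an ion channel of the endoplasmic reticulum needed for collagen modification, fell 1.29-fold (adjusted p = 0.0083), with -0.15 (adjusted p = 0.315) for its other probe. Its call was lost with no condition on background (adjusted p = 0.0737) and with each array's background as a covariate (-0.30, adjusted p = 0.0737).

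All 3 tested genes of propeptide processing rose. BMP1, the protease that removes the C-terminal propeptide of fibrillar collagens, averaged 8.42 ± 0.0433 in depleted cells and 7.21 ± 0.0675 in control cells (log2, SD, n = 3 each) and rose 2.32-fold (adjusted p = 1.61e-06). PCOLCE2 and PCOLCE, which enhance that cleavage, rose 1.70-fold and 1.39-fold. The PCOLCE call was lost under median scaling (0.40, adjusted p = 0.0894) and with each array's background as a covariate (0.32, adjusted p = 0.0729). TLL1, TLL2, ADAMTS2, ADAMTS3 and ADAMTS14, other propeptide proteases, were above background on too few arrays to be tested.

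The cross-linking oxidases went both ways. LOXL1 rose 2.43-fold (adjusted p = 1.95e-06), with its probe above background on 1 control array. LOXL4, above background on 2 control arrays, rose 1.69-fold (adjusted p = 0.0025). Neither could have met the condition for testing without the depleted arrays. LOX fell 1.32-fold (adjusted p = 0.00678, but 0.0571 with no condition on background and 0.0565 with each array's background as a covariate).

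Among collagen receptors, 4 of 7 tested genes rose and none fell. DDR1, a receptor tyrosine kinase activated by collagen, averaged 9.92 ± 0.0781 in depleted cells and 8.17 ± 0.0617 in control cells (log2, SD, n = 3 each) and rose 3.36-fold (adjusted p = 1.48e-07). ITGA2, the integrin subunit that with ITGB1 forms a collagen receptor, rose 3.62-fold (adjusted p = 3.27e-07). ITGB1 rose 1.35-fold by its brightest probe (adjusted p = 0.00812, and 0.0563 with no condition on background), with 1.02 and 0.42 for the others, of which the probe at 0.42 did not pass (adjusted p = 0.117). ITGA10, a collagen receptor subunit of cartilage cells, was above background on 1 control array only. It could not have met the condition for testing without the depleted arrays. ITGA10 rose 1.26-fold (adjusted p = 0.031) at intensities near background, and this call was lost under 6 of 13 alternatives. Those included leaving out control replicate 1 (0.22, adjusted p = 0.131) or depleted replicate 3 (0.29, adjusted p = 0.102). DDR2, the other discoidin receptor, ITGA1 and MRC2, a receptor for collagen uptake, were not tested for lack of a probe above background on 3 arrays.

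**Figure D5:**
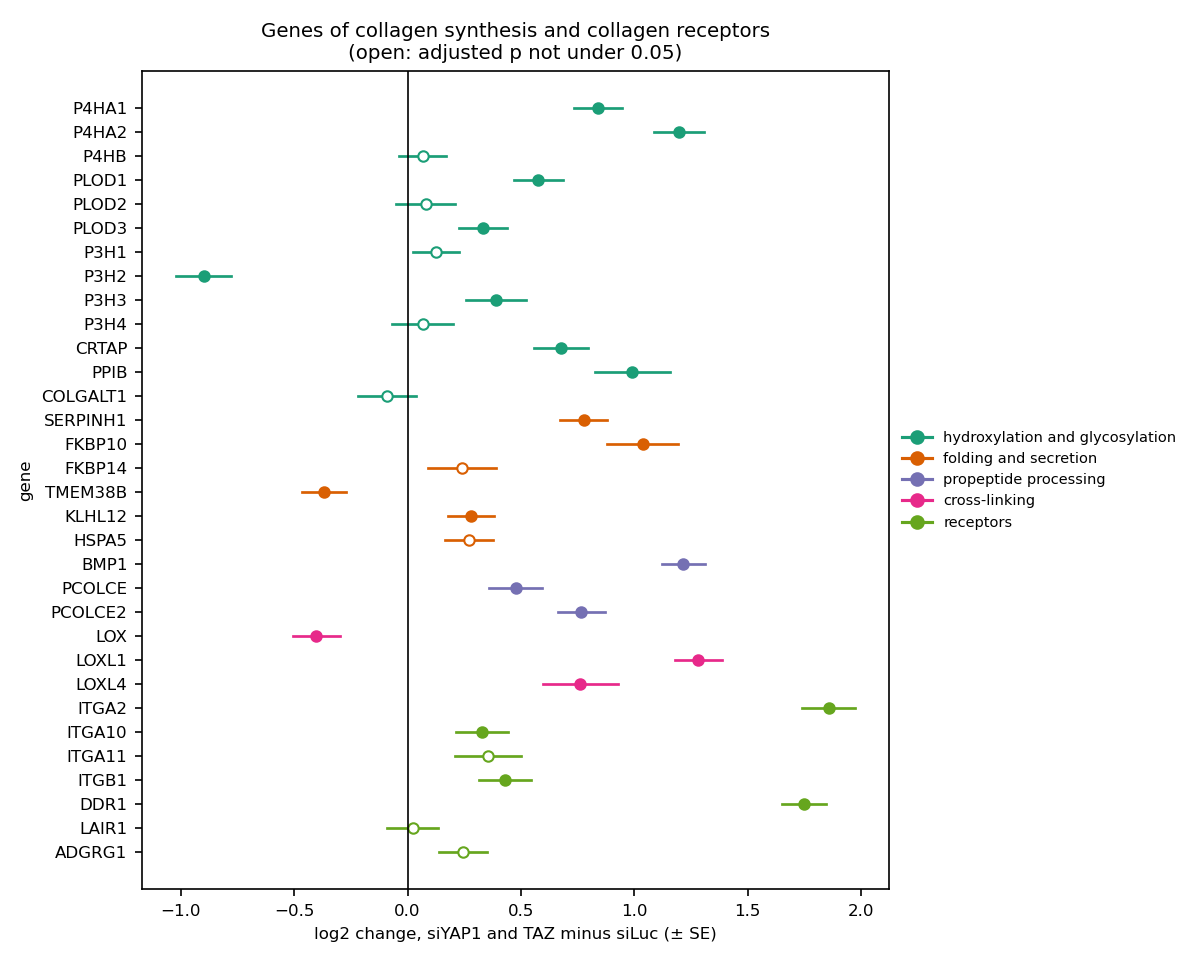
Log2 change (depleted minus control cells, bars ± SE from the limma fit) of the 32 tested genes of collagen synthesis, processing, cross-linking and binding, coloured by step; open points did not pass an adjusted p of 0.05. ITGA2 and DDR1 lie farthest to the right, and P3H2, LOX and TMEM38B are the filled points left of 0.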

How the data were processed

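RNA of 6 samples of SK-Hep1 cells was read on 1-colour Illumina bead arrays of 47231 probes. Groups came from the sample titles. Per the submitters' processing notes the authors used BeadStudio. Its version and settings were not stated in the sources used. The authors deposited summarised bead intensities on a linear scale, without control probes or detection p-values, and processed values on a log2 scale. Of the deposited log2 values, 99.9% lay within 0.1 of quantile-normalised log2 intensities.

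From the deposited intensities, limma 3.58.1 (R 4.3.3) removed background by normexp on the probes of each array (offset 16), with quantile normalisation and log2 after it, so the size of changes in dim probes depends on the estimated background. The mode of an array's log2 density (bandwidth 0.05) was its background, and the values below it, mirrored, gave the detection threshold, which 5% of background would pass. Probes above it on at least 3 arrays, 15899 in all, were tested with lmFit and eBayes, two-sided, adjusted by the Benjamini-Hochberg method at 0.05. A fold against a group wholly below background is a bound: the brighter group's mean against the mean, per array, of the higher of the probe's value and the lowest detected value. The code was tested on simulated data.

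Gene names came from the platform annotation, updated by Entrez identifier: 30113 probes had 1 symbol, 8 had several and 17110 were unnamed here. A gene of the synthesis list was read by its brightest detected probe; up to 4 genes per step and direction were named, by adjusted p, and every tested collagen gene was named. The members and lists were chosen with earlier results of these data known. The alternatives were offset 50, no background correction, median scaling, other detection rules, the authors' log2 values, covariates, probe means and leaving out each array.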

Additional observations from a re-analysis of the deposited data

How the results depend on the processing

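Direction held for every one of the 21 collagen probes under every alternative run, and 279 of 287 values kept their side of the threshold. The 8 that did not were those of COL13A1, COL4A1, COL5A2 and COL16A1 given above. Of 304 values for the 22 genes of collagen synthesis and binding that passed, 270 kept their side, 34 fell short and none turned. The count of collagen probes that rose, 18, was 15 under median scaling, 21 with every probe tested and 11 with detection on all 6 arrays, where 14 were tested, and it was 18 without any single array. The count that fell, 1, was between 0 and 1 with 1 array left out. With every probe tested it was also 1, but for COL12A1 in place of COL13A1. Genes of the synthesis list that fell, 3, numbered 1 with every probe tested and 1 with each array's background as a covariate. Those that rose, 19, numbered 13 under median scaling and 15 to 19 with 1 array left out. The median change of collagen genes, 0.86, was 0.66 with offset 50, 0.71 without background correction, 0.69 with the authors' processed values, 0.74 with the background covariate, 1.009 with detection on all 6 arrays and 0.13 over all 43 genes with every probe tested; it ran from 0.79 to 0.92 with 1 array left out. Median scaling placed the median change of all genes at -0.11. Its adjusted p followed the size of the change alone, so a call lost under it need not reflect a changed estimate. COL16A1 lost its call there at 0.45, beside 0.47 as reported. COL4A1 and COL5A2, in contrast, lost theirs with smaller estimates, 0.38 beside 0.61 and 0.26 beside 0.49. Of the synthesis list, PLOD1 went from 0.58 to 0.36, PLOD3 from 0.33 to 0.12 and KLHL12 from 0.28 to 0.09. Pairs of chains that did not overlap, 9 of 10, numbered 8 under median scaling and 9 to 10 with 1 array left out.

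With replicate number as a block, 18 collagen probes rose and 1 fell, and 18 genes of the synthesis list rose and 3 fell; KLHL12 was the collagen synthesis gene whose call was lost. Samples of the same number did not deviate together (correlations of -0.18, -0.13 and -0.01), so the numbers were not taken as pairs. Signal over background limits what can be said of the 25 untested genes. With every probe tested, a probe of COL15A1 (0.76, adjusted p = 0.00138) and a probe of COL8A1 (0.68, adjusted p = 0.00782) were higher. A probe of COL12A1 (-0.57, adjusted p = 0.0247) was lower. These probes were below the threshold on at least 5 of 6 arrays, and the other probes of COL8A1 and COL12A1 did not pass.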
